A study of Mus musculus with 2 samples.

Results

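The guanylate-binding proteins (Gbps) are large interferon-inducible GTPases, and 7 mouse Gbp genes (Gbp2, Gbp3, Gbp4, Gbp5, Gbp6, Gbp7 and Gbp9) were followed in sarcoma cells in which the circular RNA circCsnk1g3 was silenced. The members were selected by gene symbol, after the changes between the same 2 libraries were known, so their counts and fold changes are given as a description and support nothing. Of 25509 gene rows in the count table, 8 carried 1 of these symbols, since Gbp6 stands on 2 rows, and 6 of the 8 rows had at least 10 counts in 1 library or both, as did 12941 rows in all. The lowest row on the list was the second Gbp6 row, with 0 counts in shcircCsnk1g3 and 1 in shCTR, and the next was Gbp4, with 9 and 4. The other family genes of the table, Gbp2b, Gbp8 and Gbp10, also had 0 and 1 counts each.

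The cells were C57BL/6 soft-tissue sarcoma cells derived from mesenchymal stem cells that are labelled as p53 knockout and as overexpressing Ccne1 (cyclin E1), and they had been passed through subcutaneous tumours and then lung foci in recipient mice before they were transduced. The shcircCsnk1g3 cells carried a hairpin against the junction that closes the circle, the shCTR cells carried the control hairpin, and both carried the same p53 knockout and Ccne1 labels. There was 1 poly(A) RNA library per condition, with total counts of 38792143 and 42709996, so no replicate check and no test between conditions could be made. The labels name the hairpin only as shcircCsnk1g3, and libraries of cells silenced for circAnkib1 were not analysed here.

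Gbps bind GTP through a conserved P-loop in an N-terminal globular domain, assemble on membranes, and coat pathogen vacuoles and bacteria in the cytosol, where they help to open the vacuole and to engage inflammasome caspases. Interferon gamma is their classical inducer, through a promoter element called the gamma-activated site (GAS), and type I interferon induces them through the interferon-stimulated response element (ISRE), which is bound by a complex that contains IRF9. In the mouse the genes lie in a cluster on chromosome 3 and another on chromosome 5, and they are also switched on in non-immune cells such as fibroblasts.

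The promoters are shown first, because these elements are how interferon reaches the family. Of the 7 members, 4 (Gbp2, Gbp3, Gbp5 and Gbp7, all on chromosome 3) had an entry among the RefSeq promoters of GRCm38.p6, and Gbp4, Gbp6 and Gbp9 had none. The 250 bases before the transcription start are given 5′ to 3′, with capitals for matches to the GAS core (TTCNNNGAA) or the ISRE core (GAAANNGAA), searched on both strands. All the ISRE matches lay on the opposite strand and therefore read TTCNNTTTC. Gbp2b is shown for contrast, as a neighbour in the same cluster that was almost without counts in both libraries.
Gbp2 (chr3:142620413-142620662, + strand): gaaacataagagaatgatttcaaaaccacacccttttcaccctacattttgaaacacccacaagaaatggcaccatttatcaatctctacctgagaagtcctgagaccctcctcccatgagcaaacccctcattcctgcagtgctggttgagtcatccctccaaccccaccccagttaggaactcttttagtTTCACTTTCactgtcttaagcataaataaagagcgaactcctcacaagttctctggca
Gbp3 start 1 (chr3:142559794-142560043, + strand): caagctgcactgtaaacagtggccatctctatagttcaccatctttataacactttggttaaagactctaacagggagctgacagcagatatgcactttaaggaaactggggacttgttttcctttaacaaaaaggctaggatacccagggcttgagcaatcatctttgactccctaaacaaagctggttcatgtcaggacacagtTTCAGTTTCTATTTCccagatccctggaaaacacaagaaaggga
Gbp5 (chr3:142496684-142496933, + strand): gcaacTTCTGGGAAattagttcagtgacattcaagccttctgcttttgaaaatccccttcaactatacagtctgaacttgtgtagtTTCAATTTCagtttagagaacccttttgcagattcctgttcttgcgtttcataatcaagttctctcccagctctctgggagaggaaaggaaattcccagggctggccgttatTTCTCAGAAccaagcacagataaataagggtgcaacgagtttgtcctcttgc
Gbp7 (chr3:142530086-142530335, + strand): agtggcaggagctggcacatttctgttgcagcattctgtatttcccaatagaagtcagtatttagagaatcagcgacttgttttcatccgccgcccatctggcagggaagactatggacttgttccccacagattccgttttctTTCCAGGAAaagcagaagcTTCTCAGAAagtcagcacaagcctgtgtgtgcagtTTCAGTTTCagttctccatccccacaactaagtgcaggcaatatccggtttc
Gbp2b (chr3:142594597-142594846, + strand): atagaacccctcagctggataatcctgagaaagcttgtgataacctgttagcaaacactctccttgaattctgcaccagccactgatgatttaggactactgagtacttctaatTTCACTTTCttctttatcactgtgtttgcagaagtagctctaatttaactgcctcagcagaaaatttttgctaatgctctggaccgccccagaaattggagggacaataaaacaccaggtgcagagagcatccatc

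Each of these sequences held an ISRE core. In Gbp2 its first base lay at -58 from the start, and in Gbp7 at -52. The RefSeq starts can differ from the GENCODE M21 gene models, whose bounds and lengths are used below. The printed Gbp5 stretch lies wholly inside the M21 bounds of Gbp5, and the Gbp2 match lies inside those of Gbp2. Gbp3 has a second annotated start, whose promoter (chr3:142560106-142560355) held neither core, and its start 1 held 2 overlapping ISRE matches at -44 and -38. Gbp5 and Gbp7 held 2 GAS cores each, Gbp5 at -245 and -52 beside an ISRE core at -164, and Gbp7 at -106 and -87. Over windows of 300 bases, from 250 before to 50 after the start, 4 of the 5 member promoters held the ISRE core and 2 the GAS core, against 8.56% and 8.30% of all 32851 promoters. Gbp2b also held an ISRE core, at -136, so the letters were present in a gene with hardly any counts as well as in its well-counted neighbours. A match is a run of letters and not a measured binding site.

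**Figure D1:**
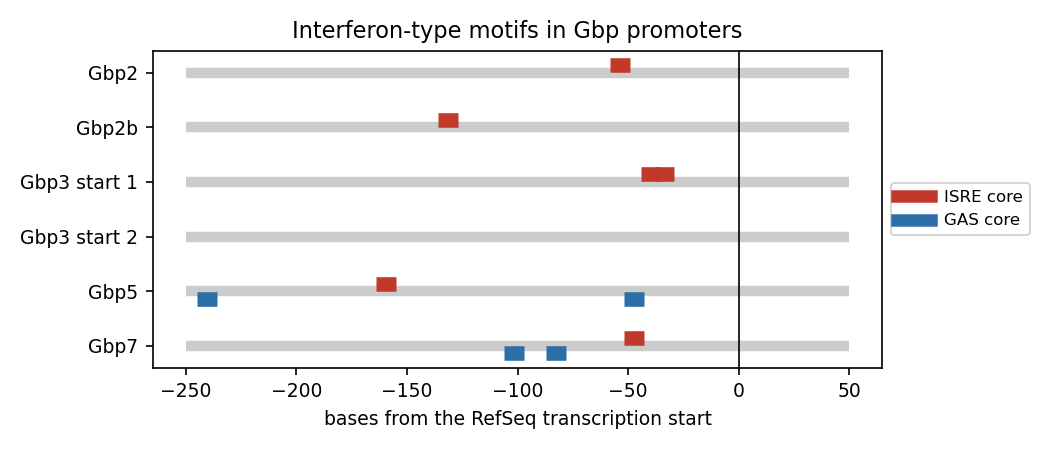
Matches to the ISRE core (red) and the GAS core (blue) in 6 Gbp promoters, by distance in bases from the RefSeq transcription start (x axis). Of the 6 promoters 5 held an ISRE core and 2 a GAS core, while start 2 of Gbp3 held neither.

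The targeted locus was checked before the family was compared. Csnk1g3, a casein kinase gene on chromosome 18 and the host of the circle, had 2159 counts in shcircCsnk1g3 and 2411 in shCTR, a log2 fold change of -0.05 (95% interval -0.14 to 0.03). A circle lacks a poly(A) tail, and the counts therefore come from the linear transcript and do not check the depletion of the circle. Ccne1 had 893 and 963 counts and a log2 fold change of -0.00 (-0.13 to 0.13). Trp53, the gene of p53, had 3841 and 4334 counts and a log2 fold change of -0.07 (-0.13 to -0.00), so reads of this gene were abundant in both libraries labelled as knockout. Where the gene was altered is not given in the sources used here, and counts of the whole gene do not check the label. Fold changes are of shcircCsnk1g3 over shCTR, in CPM (counts relative to library size) after scaling by the trimmed mean of M values (TMM), and 2 counts are added beforehand as a prior. The intervals are exact Clopper-Pearson intervals of the ratio of the counts without the prior, and they cover counting error only, neither variation between cultures nor amplification duplicates.

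On chromosome 3, Gbp3 had the highest counts of the family in shcircCsnk1g3. Gbp3 (ENSMUSG00000028268, chr3:142560026-142573209, + strand, GRCm38) had 421 counts in shcircCsnk1g3 and 113 in shCTR. Its TMM-scaled CPM was 10.7 against 2.68, a log2 fold change of 1.99 (1.70 to 2.32), rank 50 of the 12941 genes from the highest. Its rank was 5 among the 10662 genes whose counts in both libraries summed to at least 200, where counting error is small.

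Gbp2 is a prenylated family member known for its recruitment to Toxoplasma vacuoles. Gbp2 (ENSMUSG00000028270, chr3:142620602-142638008, + strand) had 398 counts in shcircCsnk1g3 and 128 in shCTR. Its TMM-scaled CPM was 10.2 against 3.03, and its log2 fold change was 1.73 (1.45 to 2.04). It held the highest count of the family in shCTR, whereas Gbp3 held it in shcircCsnk1g3.

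Gbp7 has been linked to oxidative and autophagic host defence. Gbp7 (ENSMUSG00000040253, chr3:142530342-142550149, + strand) had 271 counts in shcircCsnk1g3 and 92 in shCTR. The TMM-scaled CPM was 6.91 against 2.18, and the log2 fold change was 1.64 (1.32 to 2.02). Gbp5, which also carries a prenylation motif and has been linked to inflammasome activation, was counted less often. Gbp5 (ENSMUSG00000105504, chr3:142493978-142522344, + strand) had 109 counts in shcircCsnk1g3 and 40 in shCTR. Its TMM-scaled CPM was 2.78 against 0.947, and its log2 fold change was 1.51 (1.02 to 2.11). The intervals of these 4 chromosome 3 genes overlapped one another.

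On chromosome 5 the members had fewer counts and wider intervals. Gbp6 (ENSMUSG00000104713, chr5:105270702-105293698, - strand) had 83 counts in shcircCsnk1g3 and 24 in shCTR, or 2.12 and 0.568 TMM-scaled CPM. Its log2 fold change of 1.81 (1.23 to 2.62) lay within the range of the chromosome 3 members. The other row named Gbp6 (ENSMUSG00000079362, called Gm43302 in GENCODE M21) had 0 counts and 1 count.

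Gbp9 stood lowest among the members that passed the minimum. Gbp9 (ENSMUSG00000029298, chr5:105077630-105139539, - strand) had 43 counts in shcircCsnk1g3 and 28 in shCTR, or 1.10 and 0.663 TMM-scaled CPM. Its log2 fold change was 0.69 (0.01 to 1.47), so the lower bound lay next to no difference. Gbp4 (ENSMUSG00000079363, chr5:105115767-105139586, - strand) had 9 counts in shcircCsnk1g3 and 4 in shCTR, under the minimum. Its ratio of TMM-scaled CPM was 2.42 with an interval of 0.677 to 10.8, so a difference in Gbp4 was not detectable at this depth.

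**Figure D2:**
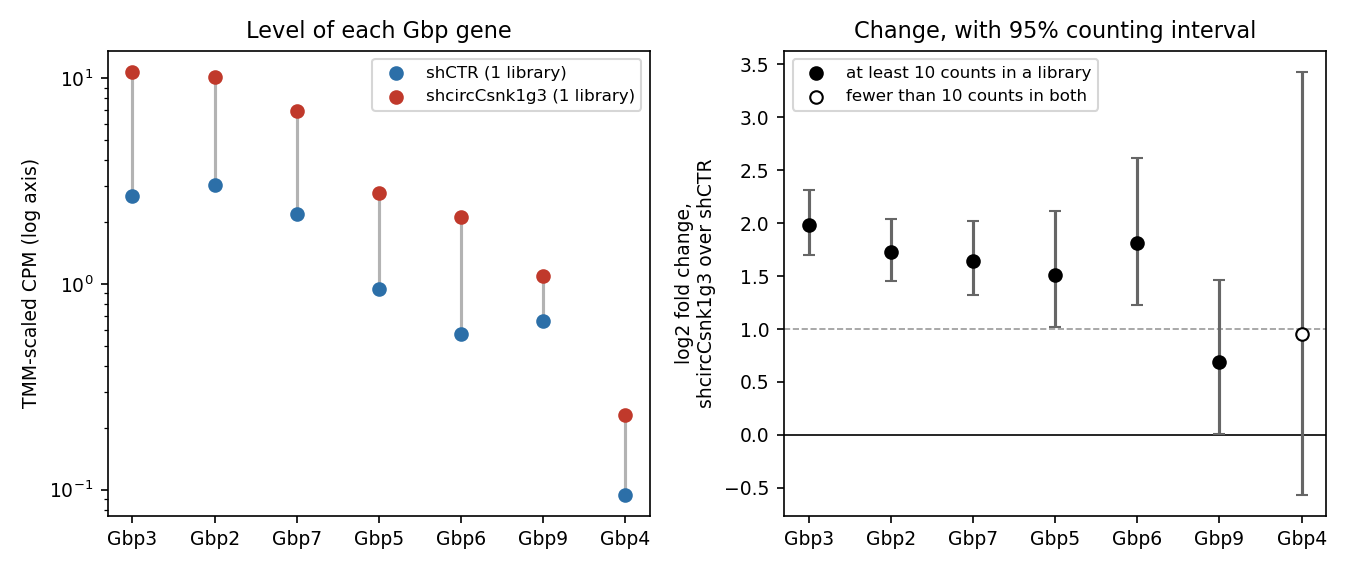
Left, TMM-scaled CPM (log axis) of each Gbp gene in the 1 shcircCsnk1g3 library (red) and the 1 shCTR library (blue). Right, log2 fold change with its 95% counting interval, where the 6 filled points lie between 0.69 and 1.99 and the open point (Gbp4, under 10 counts in both libraries) has an interval that spans 0.

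All 6 members that passed the minimum were higher in shcircCsnk1g3, and 5 of them at least 2-fold, where 2.13% of all genes tested were at least 2-fold higher. All 6 were at least 1.5-fold higher, beside 5.39% of all genes, and 6.31% of all genes were at least 1.5-fold lower. The counting interval lay above 0 for 6 of 6 members and for 26.9% of all genes, a share that shows how readily counting error alone is passed at this depth. The 3 members with at least 200 summed counts (Gbp2, Gbp3 and Gbp7) were all at least 2-fold higher, beside 0.563% of genes with as many counts. Since the members were picked with this contrast known, nothing is read from these counts. The median log2 fold change of the 6 members was 1.69, and that of all genes was 0.00.

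**Figure D3:**
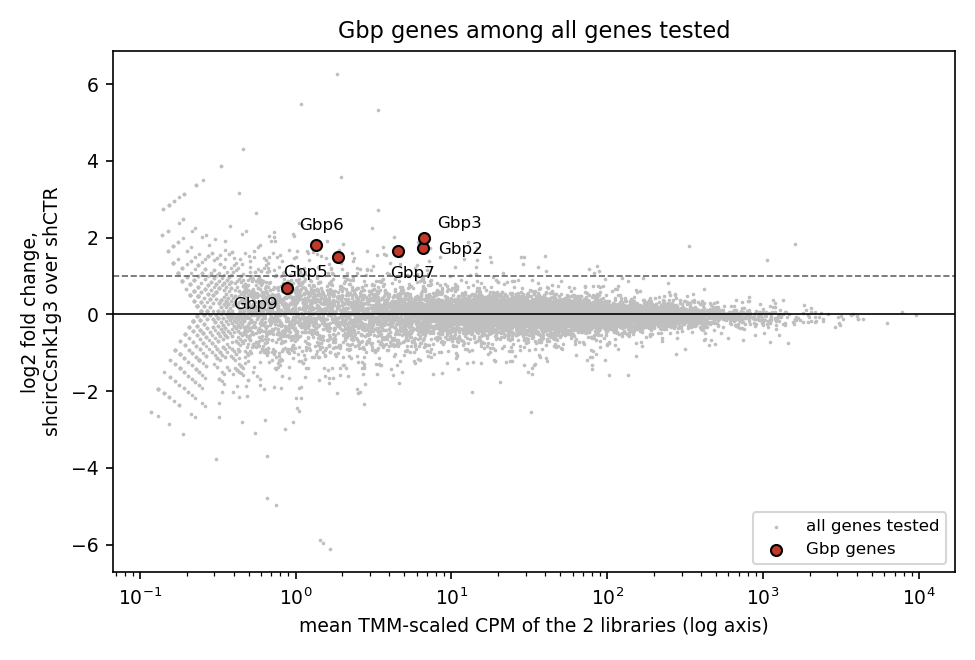
Log2 fold change of shcircCsnk1g3 over shCTR (y axis) against the mean TMM-scaled CPM of both libraries (x axis, log scale) for 12941 genes (grey) and 6 Gbp genes (red). Gbp2, Gbp3, Gbp5, Gbp6 and Gbp7 lie above the dashed line at 2-fold, and Gbp9, at 0.69, lies below it.

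Summed over its 8 rows, the family had 1334 counts in shcircCsnk1g3 and 430 in shCTR, or 34.0 and 10.2 TMM-scaled CPM. The ratio was 3.34, or 1.74 (1.58 to 1.90) on the log2 scale. The chromosome 3 members contributed 1199 and 373 counts, a ratio of 3.46 (3.08 to 3.90), and the chromosome 5 rows 135 and 57 counts, a ratio of 2.55 (1.86 to 3.54). The intervals of the clusters overlapped. In these bulk libraries a larger number of cells that express a Gbp gene and more RNA per cell cannot be told apart.

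The makeup of the family was compared by the share of each member. Gbp2 made up 29.8% of the family counts in shcircCsnk1g3 (exact binomial interval 27.4 to 32.4) and 29.8% in shCTR (25.5 to 34.3). Gbp3 made up 31.6% (29.1 to 34.1) and 26.3% (22.2 to 30.7), intervals that overlapped. Gbp7 held 20.3% and 21.4%, Gbp5 8.17% and 9.30%, and Gbp6 6.22% and 5.58%. The share of Gbp9 was 3.22% (2.34 to 4.32) in shcircCsnk1g3 and 6.51% (4.37 to 9.27) in shCTR, and these intervals did not overlap.

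Ratios between members are free of the scaling between libraries. Of 21 pairs, 4 had an odds ratio whose conditional exact 95% interval left out 1, with no adjustment for the number of pairs, and Gbp9 was in each of the 4. The change of Gbp3 exceeded that of Gbp9 by an odds ratio of 2.42 (1.38 to 4.19), and that of Gbp6 by 2.24 (1.11 to 4.58). Gbp2 over Gbp9 gave 2.02 (1.16 to 3.48) and Gbp7 over Gbp9 gave 1.91 (1.08 to 3.36). Gbp5 over Gbp9, at 1.77 (0.930 to 3.36), did not separate. Among the remaining members no pair separated, for example Gbp2 over Gbp3 at 0.835 (0.619 to 1.12), which leaves room for unequal changes of moderate size.

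Levels were compared between members per kilobase of merged exon. In shcircCsnk1g3 the order was Gbp2 (4.03 TMM-scaled CPM per kb), Gbp3 (3.29), Gbp7 (1.23), Gbp5 (0.419), Gbp6 (0.356), Gbp9 (0.212) and Gbp4 (0.0306). Gbp5 and Gbp6 were neighbours that did not differ beyond counting error, with a ratio of 1.18 (0.877 to 1.59). In shCTR the order was Gbp2 (1.204 TMM-scaled CPM per kb), Gbp3 (0.819), Gbp7 (0.388), Gbp5 (0.143), Gbp9 (0.128), Gbp6 (0.0954) and Gbp4 (0.0126). There Gbp5 and Gbp9 (1.11, 0.670 to 1.87), and Gbp9 and Gbp6 (1.34, 0.751 to 2.42), did not separate. Gbp6 and Gbp9 thus held different places in the libraries, but in shCTR that place lay within counting error. By the longest transcript of each gene Gbp6 (0.134) stood above Gbp9 (0.131) in shCTR too, without separation. Gbp5 over Gbp6 then separated in shcircCsnk1g3, at 1.48 (1.10 to 1.998), and in shCTR, at 1.88 (1.11 to 3.27). The lead of Gbp2 over Gbp3 also depended on the length used. It was 1.23 (1.07 to 1.41) in shcircCsnk1g3 by merged exons and 1.01 (0.876 to 1.16) by the longest transcript.

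The members differ in how safely their reads can be told from those of relatives. Of the 50-base words of the annotated transcripts, 2.03% in Gbp2, 3.75% in Gbp3 and 1.44% in Gbp5 occurred in another gene. For Gbp7 the share was 12.7%, mostly with the pseudogene Gm43802, and for Gbp9 8.05%. Gbp6 was the exception, at 70.7%, most of it shared with Gm43302, and 45.9% of its words occurred in Gbp10. The Gbp6 value is therefore uncertain as a value of 1 locus. Summed over Gbp6, Gm43302 and Gbp10 the counts were 83 and 26, a ratio of 3.44 (2.19 to 5.57). Gbp4, Gbp8 and Gbp9 overlap on the same strand of chromosome 5, so reads from their common stretch could also be divided in more than 1 way.

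The encoded proteins show the same kinship. Gbp6 and the product of Gm43302 were 99.8% identical, Gbp6 and Gbp9 85.1%, and Gbp4 and Gbp6 81.0%. On chromosome 3, Gbp3 and Gbp7 were 73.1% identical, Gbp2 and Gbp5 55.6%, and Gbp2 and Gbp3 53.0%. The proteins of the 7 members had 589 to 638 residues and 1 P-loop each. A cysteine at the 4th residue from the end, the place where a prenyl group is attached, was found in Gbp2 and Gbp5 and in no other member. Members with that cysteine, at log2 fold changes of 1.73 and 1.51, lay among those without it, at 0.69 to 1.99.

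The genes beside the clusters were compared because position played no part in choosing the members. Of the 20 nearest protein-coding genes, 10 around each cluster, 15 passed the count minimum, with log2 fold changes from -0.91 to 0.58 and a median of 0.00. None of the 15 was at least 1.5-fold higher, which is near the 5.39% of all genes, and 2 were as much lower, beside 6.31% of all genes. The highest, Lrrc8d at 0.58 (0.51 to 0.66), lay below the value of Gbp9 but within its interval. On chromosome 3 the 7 neighbours tested had a median of -0.25. Kyat3, a kynurenine aminotransferase gene 32.0 kb after that cluster, had 199 and 344 counts and a log2 fold change of -0.68 (-0.94 to -0.43). Bmpr1b, a BMP receptor gene, had 8 and 18 counts and a log2 fold change of -0.91 (-2.47 to 0.21). On chromosome 5 the 8 neighbours tested ranged from -0.45 to 0.58, with a median of 0.07. Inside the chromosome 3 cluster, Gbp2b between Gbp3 and Gbp2 had 0 counts and 1 count.

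**Figure D4:**
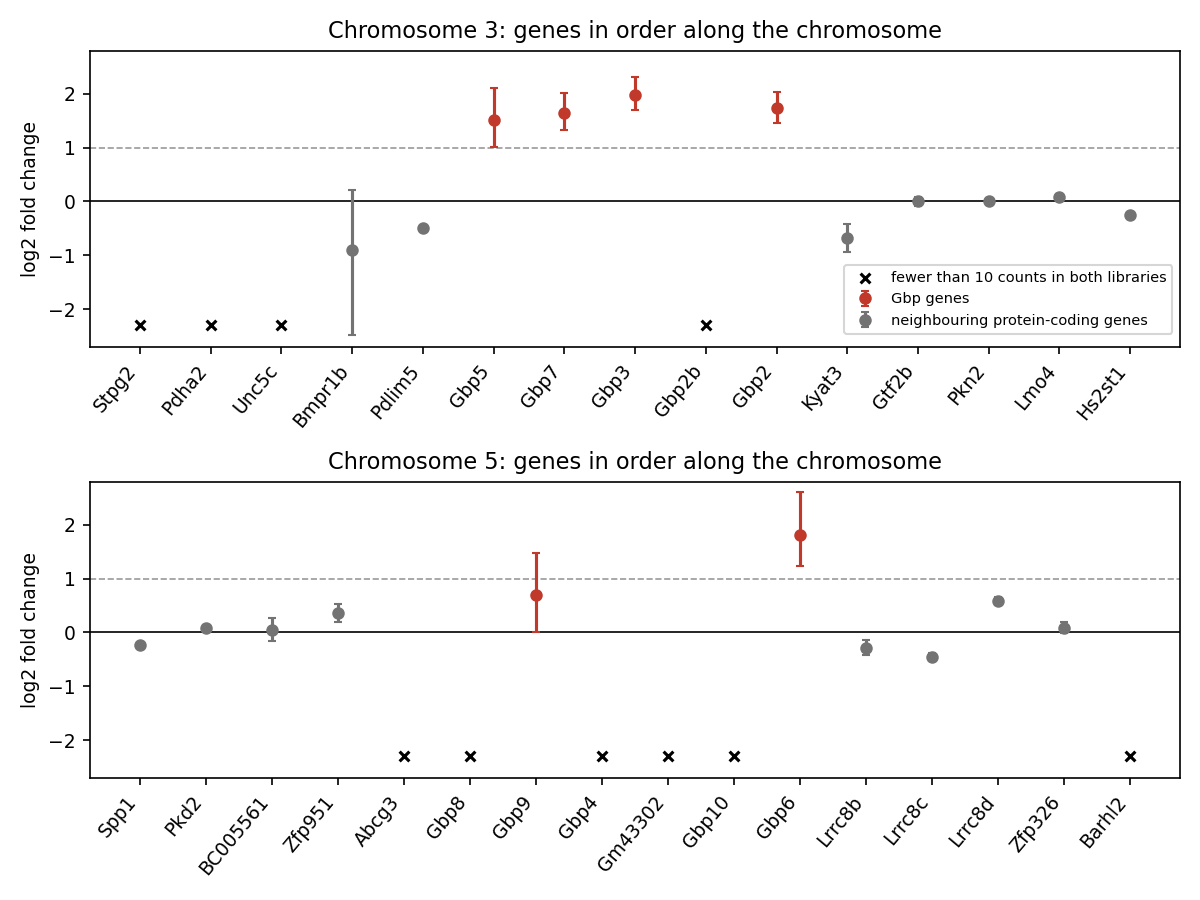
Log2 fold change of shcircCsnk1g3 over shCTR (y axis, bars are 95% counting intervals) for Gbp genes (red) and neighbouring protein-coding genes (grey) in their order along chromosomes 3 and 5, with crosses for genes under 10 counts in both libraries. The 15 neighbours drawn with a value lie between -0.91 and 0.58, and the 6 Gbp genes between 0.69 and 1.99.

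Interferon genes themselves were almost without counts. Of 17 interferon genes in the table, 15 had 0 counts in both libraries. Ifnb1 had 1 count in each, Ifnz 0 and 3, Ifnk 0 in both, and Ifng, the classical inducer of the Gbps, 0 in both. At these libraries' depth a count of 0 allows up to 0.0765 and 0.0710 CPM (3 counts).

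The receptors and signal carriers that lead from interferon to the Gbps lay closer to 0 as a list. Of 13 receptor, JAK-STAT and IRF genes tested, 9 were higher and 4 lower, 3 by at least 1.5-fold higher and none as much lower, beside 5.39% and 6.31% of all genes, with a median log2 fold change of 0.16. These 3 were Irf9, the DNA-binding subunit of the complex on the ISRE, with 2196 and 1073 counts and a log2 fold change of 1.14 (1.03 to 1.25), Irf7, an amplifier of type I interferon (336 and 147 counts, 1.29), and Stat2 (1290 and 756 counts, 0.88). Irf1, a direct activator of Gbp promoters, had 2093 and 1669 counts and a log2 fold change of 0.43 (0.34 to 0.53). Ifnar1, a chain of the type I receptor, stood at -0.12 and the kinase gene Jak1 at -0.10. Chosen after their values were seen, the interferon gamma receptor genes Ifngr1 (0.06, -0.06 to 0.19) and Ifngr2 (-0.04, -0.16 to 0.09) had intervals that spanned 0.

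Among 7 genes that restrain interferon signalling, 2 were at least 1.5-fold higher and none as much lower, beside 5.39% and 6.31% of all genes. Usp18, a protease that removes ISG15 and blocks the type I receptor, had 376 and 108 counts and a log2 fold change of 1.89 (1.59 to 2.23), in the range of the Gbps. Cish had 49 and 32 counts and a log2 fold change of 0.69 (0.05 to 1.41). Of the 3 brakes with the highest mean CPM, Socs3, an inhibitor of cytokine receptors, stood at 0.19 (0.11 to 0.28), the phosphatase gene Ptpn2 at 0.20 (0.10 to 0.31) and Pias1 at -0.16 (-0.28 to -0.04). Socs1, a brake on JAK kinases that was chosen after its value was seen, had 326 and 482 counts and a log2 fold change of -0.45 (-0.66 to -0.25).

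The immunity-related GTPases are partners of the Gbps on pathogen vacuoles. A list of other interferon-inducible GTPases and their relatives had 7 genes tested. Of these, 5 were higher, all 5 by at least 1.5-fold and 3 by at least 2-fold. The other 2 were lower, 1 of them by at least 1.5-fold, and the median log2 fold change was 0.85. Of all genes, 5.39% were at least 1.5-fold higher, 2.13% at least 2-fold higher and 6.31% at least 1.5-fold lower. Irgm2 had 269 and 70 counts and a log2 fold change of 2.02 (1.67 to 2.45), and Igtp (Irgm3) 173 and 58 counts and 1.65 (1.25 to 2.14). Mx1, an antiviral dynamin-like GTPase, had 45 and 22 counts and a log2 fold change of 1.07 (0.37 to 1.95). Irgm1 stood at 0.85 (0.72 to 0.99), and Tgtp2 at 0.77 (0.28 to 1.31). Irgq, a relative on that list whose induction by interferon was not examined, had 688 and 909 counts. Its log2 fold change was -0.29 (-0.44 to -0.15). The other gene that was lower, Gvin1, had 0 and 127 counts, but it shares nearly all its sequence with Gm4070, whose counts ran the other way, and it is uncertain as a single gene.

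**Figure D5:**
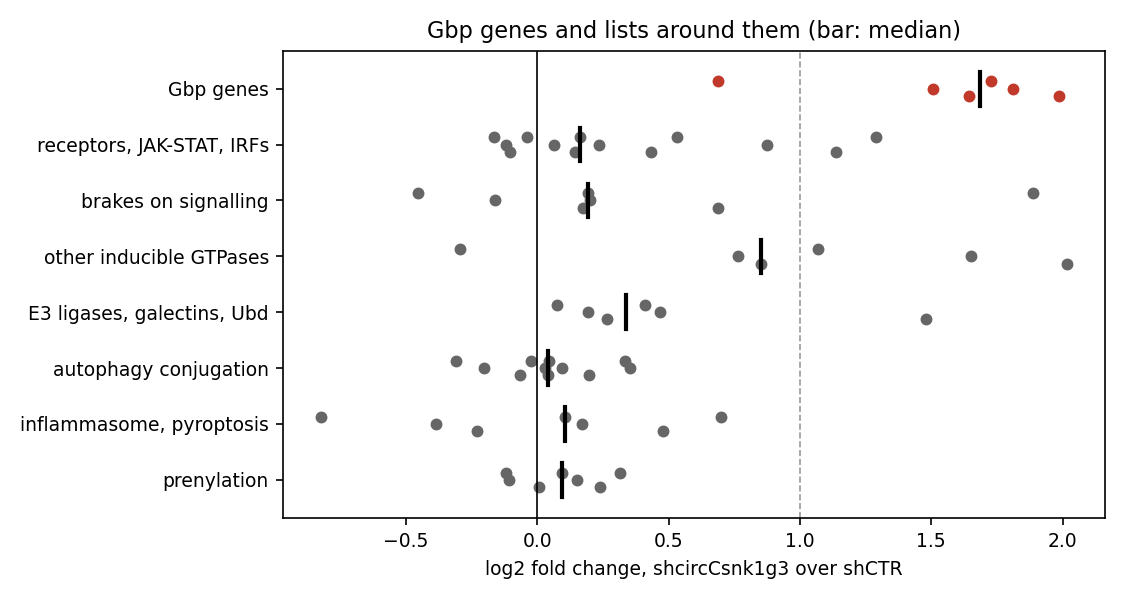
Log2 fold change of shcircCsnk1g3 over shCTR (x axis) for the Gbp genes (red) and the tested genes of 7 lists around them (grey), with a bar at each list's median. The Gbp median of 1.69 lies above the medians of the lists. The nearest is 0.85 for the list labelled other inducible GTPases, which includes relatives such as Irgq. Gvin1 of that list is counted in the median but is not drawn because it has 0 counts in shcircCsnk1g3.

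Genes that act with the Gbps after induction had medians nearer to 0. Of 6 E3 ligase and galectin genes tested, all 6 were higher but only Trim21, an antibody-binding ubiquitin ligase, by at least 1.5-fold (138 and 52 counts, 1.48), beside 5.39% of all genes. Rnf213, a giant ubiquitin ligase, had a log2 fold change of 0.47 and Lgals3, a galectin that marks broken vacuoles, of 0.27. Lgals8, another galectin of damaged vacuoles, stood at 0.07 (-0.04 to 0.18). None of the 11 autophagy conjugation genes, which help to place Gbps on vacuoles, passed 1.5-fold in either direction, a count near the background of 5.39% higher and 6.31% lower. Their median was 0.04, with the cargo receptor gene Sqstm1 at 0.35, and Gabarap and Map1lc3b, which encode the conjugated proteins, at 0.05 and 0.09. None of the 7 genes of prenylation, the lipid anchor of Gbp2 and Gbp5, passed 1.5-fold either, which is also near that background, and their median was 0.10. The 3 with the highest mean CPM were Rabggtb (0.32), the methyltransferase gene Icmt (0.10) and the protease gene Zmpste24 (-0.11). Rabggtb encodes a subunit of the geranylgeranyl transferase for Rab proteins, which are not Gbps. Among 7 inflammasome and pyroptosis genes, 1 was at least 1.5-fold higher and 1 as much lower, beside the same shares of all genes. Casp4 (mouse caspase-11, the LPS-sensing caspase) had 869 and 575 counts and a log2 fold change of 0.70 (0.55 to 0.86), and Nlrp3 17 and 34 counts and -0.82 (-1.83 to -0.01). The pore-forming Gsdmd had a log2 fold change of 0.10, the caspase gene Casp8 of 0.17, and Ninj1, which ruptures the membrane of dying cells, of -0.23.

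Immune cells express Gbps strongly, and their markers were examined beside the result. The 16 leukocyte markers stand on 17 rows, of which 12 had 0 counts in both libraries and 14 no more than 3 counts in either. Ptprc (CD45) had 1 and 0 counts, and Adgre1, Lyz2, Cd3e, Itgax and Ncr1 had 0 in both. Cd14 had 1844 and 1774 counts and Cd68 87 and 155, a log2 fold change of 0.16 and of -0.71, and Csf1r had 2 and 6 counts. The 15 rows other than Cd14 and Cd68, with Csf1r among them, together had 3 and 8 counts, against 1334 and 430 for the Gbp family. Endothelial markers summed to 104 and 97 counts over 8 genes, most of them from Egfl7 (85 and 68), with Cdh5 at 10 and 16 and Pecam1 at 7 and 7. Lung epithelial markers summed to 28 and 29 counts over 10 genes, with Ager at 15 and 16, Foxj1 at 12 and 7 and Cdh1 at 1 and 6. Of the 12 mesenchymal markers, 11 passed the minimum, 2 higher and 9 lower, with a median log2 fold change of -0.10. Vim had 225330 and 282350 counts (-0.22), and the collagen genes Col1a2 (78250 and 71642 counts, 0.23) and Col3a1 (59725 and 49831 counts, 0.37) were the higher pair. Ly6a (Sca-1), a surface marker of mouse mesenchymal stem cells, had 1854 and 3223 counts and a log2 fold change of -0.69 (-0.77 to -0.61).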

How the data were processed

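RNA was sequenced from 2 libraries of mouse sarcoma cells, 1 per condition. The authors aligned reads with STAR 2.6.1 to GRCm38 and deposited RSEM 1.2.28 expected counts as whole numbers per gene, where reads that match several genes are divided between them. The GENCODE release is not given in the sources used here, and 25251 of 25509 identifiers were found in M21. A deposited TMM-scaled signal table of 11624 genes served as an alternative. The 92 spike-in rows, all at 0, were left out.

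Genes were kept if either library reached 10 counts, TMM factors were computed with edgeR 4.0.16 under R 4.3.3, and log2 fold changes used a prior count of 2. Ratios have 95% intervals from scipy 1.17.1. A gene with 30 counts in each library has an interval of ±0.78 on the log2 scale, and with 400 of ±0.20. The floor was 3 counts. The steps were tested on simulated data. The members and lists were chosen with earlier results of these data known, and the interferon gene list was written after the files were opened. Named genes are all Gbp genes and, of each list, the 3 with the highest mean CPM. Genes of a list with at least 50 summed counts and a 1.5-fold change are named too. So are neighbouring genes past 1.5-fold, and Csnk1g3 and Ccne1. Trp53 was named outside this rule, for its knockout label. Lrrc8d, Ifng and the leukocyte markers at 0 or 1 count were named after their values were seen, as were genes so marked in the text. Proteins were translated from M21 coding sequence, and words of 50 and 100 bases were compared between transcripts. Alternatives were DESeq2 1.42.0 size factors, total counts, prior counts of 0.5 and 10, the deposited TMM table, other count minimums, thresholds of 1.5-fold and 4-fold, longest transcripts and a shorter promoter window.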

Additional observations from a re-analysis of the deposited data

How the results depend on the processing

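No paired analysis was possible because each condition had 1 library, and for the same reason no library could be left out. Of 84 alternative values, 76 kept within the limits set for them, 8 moved and 0 reversed. With at least 200 summed counts, 3 members were left, and 3 were at least 2-fold higher and 3 had an interval above 0. At a threshold of 4-fold, 0 of 6 members passed, and Gbp3 was nearest at a log2 fold change of 1.9854. That 0 holds for the main settings only. Gbp3 stood at 2.0163 by total counts, 2.0001 with a prior count of 0.5 and 2.0069 in the deposited TMM table. Gbp3 ranked 50 of 12941 genes, so fewer than 50 genes of all kinds passed 4-fold in the main settings. The median log2 fold change of the members ranged from 1.55 (prior count 10) to 1.73 (at least 200 summed counts), and was 1.58 over 8 rows with no count filter. All 30 alternative values of single members lay within their own counting intervals. DESeq2 size factors and total counts moved the median of all genes by -0.00 and 0.03. The other values that moved were shares per kilobase by longest transcript, for example Gbp2 at 37.4% in place of 42.2% in shcircCsnk1g3, and the endothelial marker median, which fell to 1 gene. Depth limited Gbp4 and the second Gbp6 row, which stayed under the count minimum. Of the members above it, Gbp9 had the lowest summed counts, at 71.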

Other observations

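Gvin1, another interferon-inducible GTPase gene, had 0 counts in shcircCsnk1g3 and 127 in shCTR, and the 95% interval of the ratio of TMM-scaled CPM reached up to 0.0318. Gm4070, chosen after its values were seen, had 145 and 0 counts, and the interval of its ratio began at 41.8. Of the 50-base words of Gvin1, 98.3% occurred in Gm4070, and of its 100-base words 96.7%. Summed over both genes the counts were 145 and 127, a ratio of 1.23 (0.963 to 1.57).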
